A study of Homo sapiens with 6 samples.

Results

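Translation initiation factor genes were examined in LM3 cells, an established human hepatocellular carcinoma (HCC) line, after stable knockdown of the zinc finger gene ZNF706. They were taken as the genes whose symbol starts with EIF followed by a digit from 1 to 6, which gave 50 genes, on 18 chromosomes, of the 33007 in the deposited table (coordinates are GRCh38). Left out were 39 pseudogenes and 4 eIF2 kinases (EIF2AK1 to EIF2AK4) with symbols of the same pattern, whereas the eIF4E-binding proteins EIF4EBP1, EIF4EBP2 and EIF4EBP3 were kept. EIF1AY and EIF4E1B were not analysed here. RNA-seq was available for 3 control samples, which the study calls vector control cells, and 3 knockdown samples. The knockdown samples carried the pLKO.1 lentiviral vector with a short hairpin RNA against ZNF706. Both groups were puromycin-selected cells that the labels call wild type, and no other allele or agent is given. No source says that the 3 samples of a group were separate cultures, so the p-values measure the spread between these samples. All 6 are of a single line, and the labels name no further hairpin, so an effect of the hairpin on other transcripts and an effect of ZNF706 cannot be told apart.

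Translation initiation starts when the trimeric GTPase eIF2 brings the initiator tRNA to the small ribosomal subunit, which is held by the large scaffold eIF3 together with eIF1, eIF1A and eIF5. The eIF4F complex, made of the cap-binding protein eIF4E, the scaffold eIF4G and the helicase eIF4A, recruits the mRNA, and the eIF4E-binding proteins keep eIF4E from joining it. After the start codon is found, eIF5 lets eIF2 hydrolyse its GTP, eIF5B joins the large subunit, and eIF2B reloads eIF2 with GTP. This last step is blocked when stress kinases phosphorylate the alpha subunit of eIF2, which lowers general protein synthesis, and tumour cells often carry raised levels of eIF4F components.

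Sequencing depth was 62684076 to 64713764 counts for the control group and 65861994 to 69057423 for the knockdown group. The deposited counts were compared as CPM, that is, relative to the library's total, after scaling by the TMM method. ZNF706 itself was at 51.9, 55.1 and 54.7 CPM in the control samples and at 33.5, 30.8 and 32.8 CPM in the knockdown samples, so the groups did not overlap and the targeted transcript fell by 39.9% (log2 fold change -0.73, SE 0.0505). The epithelial keratins KRT8 and KRT18 had a mean of 196 and 266 FPKM, whereas the hepatocyte genes ALB, AFP, APOA1, APOB, TTR and SERPINA1 each had a mean of at most 2.17 FPKM and EPCAM of 0.178 FPKM. These cells thus expressed epithelial keratins strongly and the secreted hepatocyte proteins hardly.

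Of the 50 genes, 49 passed the filter on low counts. EIF4EBP3 did not, with counts of 8, 3 and 1 in the control samples, against 5, 2 and 14 in the knockdown samples. By edgeR's quasi-likelihood test with an adjusted p below 0.05 over all 18390 genes tested, 6 of the 49 rose and 14 fell after the knockdown, and 29 did not pass. The 6 include the near-identical copies EIF3C and EIF3CL, which are not separate measurements. Over all tested genes, 22.8% were called, 10.4% higher and 12.4% lower, against 12.2% and 28.6% of the initiation factor genes. The changes were small. The called genes moved by 0.12 to 0.26 on the log2 scale, and the median log2 fold change over the 49 genes was -0.05, beside 0.01 over all tested genes. Initiation factor genes are deeply counted, with a median mean count of 11700 against 756 over all tested genes, and the median SE of their log2 fold changes was 0.0397, so changes of this size could be called.

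**Figure D1:**
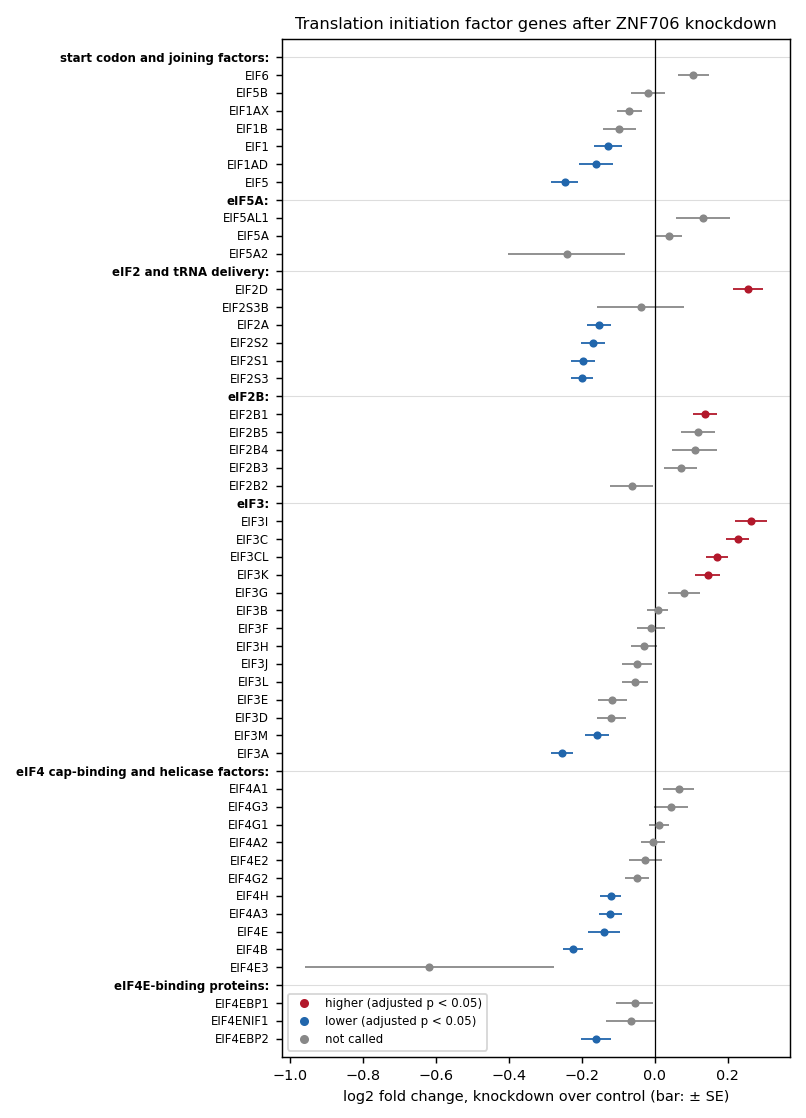
Log2 fold change (knockdown over control) of the 49 tested initiation factor genes with its standard error, grouped by role and coloured by call (edgeR's quasi-likelihood test, adjusted p below 0.05). The 3 subunits of eIF2 lie together below 0, eIF3 is spread over both sides from EIF3I at 0.26 to EIF3A at -0.26, and EIF4E3 has the widest bar.

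The split between higher and lower calls moved with the scaling, which shifts all genes alike. The TMM factors were 0.974 to 0.988 in the control samples and 1.01 to 1.02 in the knockdown samples. With library size alone the median log2 fold change of all tested genes went from 0.0095 to 0.063 and that of the initiation factor genes to 0.0049, so the latter minus the former was -0.058 against -0.059 under TMM. Calls with library size alone were 8 higher and 8 lower among the initiation factor genes, and 2741 higher and 1518 lower over all tested genes. With limma on log2(FPKM + 0.1) they were 9 higher and 8 lower among 47 initiation factor genes, beside 2279 higher and 1539 lower over the 11399 genes tested there. The study's criteria are a p below 0.05 and a minimum of 0.3, given as a fold change in its methods and as log2 in a figure caption. They were read here as an unadjusted p and a log2 fold change in either direction. By these criteria 0 initiation factor genes were called with edgeR, beside 15.5% of all tested genes. Without the fold minimum 24 of the 49 (49.0%) had an unadjusted p below 0.05, beside 34.6% of all tested genes. With DESeq2 0 met both criteria and with limma on FPKM values 1 did, EIF3I. The CPM values of the groups did not overlap for 32 of the 49 genes, of which 11 were higher and 21 lower, beside 39.4% of all tested genes. With 3 samples against 3, a two-sided permutation test of a single gene cannot go below 0.1.

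Levels were compared between genes as FPKM, which accounts for transcript length. EIF5A, which carries the hypusine residue and acts mainly in elongation, was the most abundant of the 50 with 228 ± 9.18 FPKM in the control samples and 242 ± 0.65 FPKM in the knockdown samples (mean ± SD, n = 3 each). The helicase gene EIF4A1 followed with 165 ± 6.6 and 178 ± 8.09 FPKM, and EIF4H, a cofactor of the helicase, with 162 ± 2.76 and 154 ± 1.89 FPKM. In the control samples the FPKM of EIF4A1 and EIF4H differed by less than the SD of EIF4A1. At the low end of the tested genes stood EIF4E3 with 0.137 ± 0.0586 and 0.0933 ± 0.0115 FPKM, EIF5A2 with 0.483 ± 0.0586 and 0.42 ± 0.02 FPKM, and the eIF4E transporter EIF4ENIF1 with 2.86 ± 0.0551 and 2.83 ± 0.0656 FPKM. The initiation factor genes together held 0.949%, 0.948% and 0.955% of all FPKM in the control samples, against 0.98%, 0.961% and 0.966% in the knockdown samples.

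The distance between paralogs in level differed from factor to factor. Over all 6 samples the mean FPKM of EIF5A was 520 times that of EIF5A2, and that of EIF4E was 81.3 times that of EIF4E3. Smaller ratios were found for EIF4G1 over EIF4G3 (15.5), EIF4EBP1 over EIF4EBP2 (6.79), EIF1 over EIF1B (6.56) and EIF4A1 over EIF4A2 (3.99). EIF4E and the cap-binding paralog EIF4E2 were close, with a ratio of 0.902, as were the helicase cofactors EIF4B and EIF4H with 0.951 and the scaffolds EIF4G1 and EIF4G2 with 0.758. For EIF3C over EIF3CL the ratio was 0.496, in copies whose reads cannot be told apart with certainty.

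**Figure D2:**
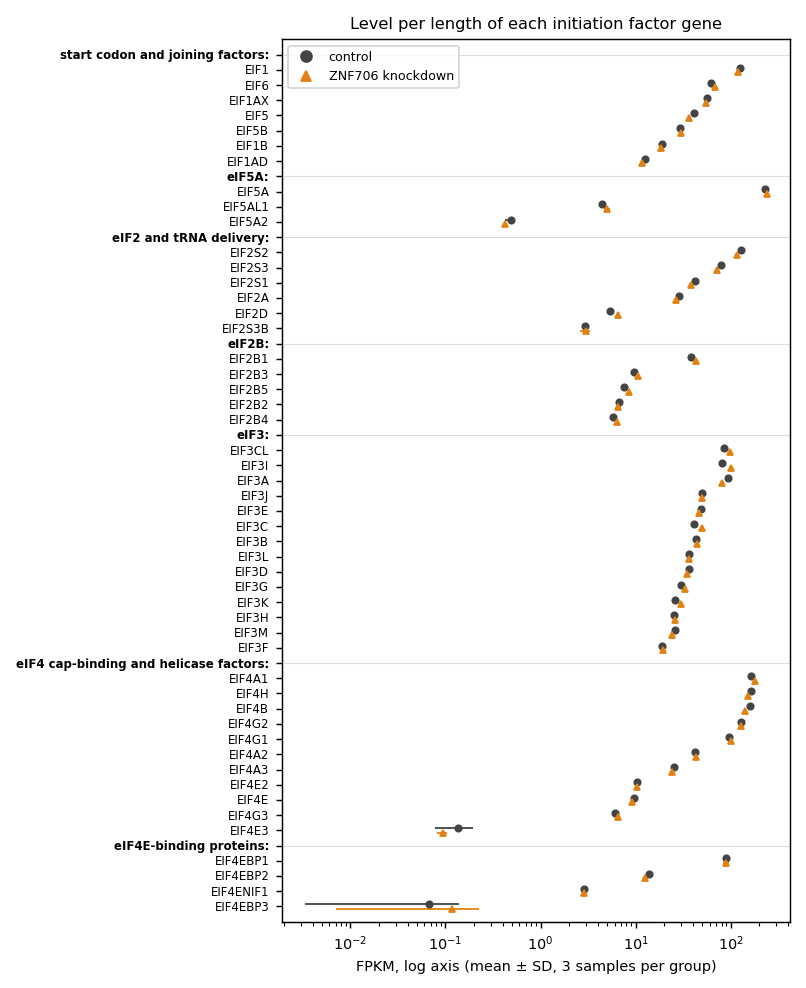
FPKM on a log axis for all 50 initiation factor genes (mean ± SD of 3 control and 3 knockdown samples), ordered by level within each role. The lower control bar of EIF4EBP3, whose SD exceeds its mean, is cut above 0. The axis runs from EIF4EBP3, near 0.1 FPKM, to EIF5A at 228 and 242 FPKM, and for most genes the markers of both groups lie close together.

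All 3 subunits of eIF2 fell. The alpha subunit gene EIF2S1 (chr14:67360151-67386516) was at 263, 264 and 276 CPM in the control samples and at 233, 234 and 235 CPM in the knockdown samples (log2 fold change -0.20, SE 0.0326, adjusted p = 0.00237). For the beta subunit, EIF2S2 (chr20:34088309-34112243), the values were 370.0, 369 and 388 CPM against 337, 333 and 332 CPM (-0.17, SE 0.0321, adjusted p = 0.00457). The gamma subunit gene EIF2S3 (chrX:24054946-24078810) had 370.1, 374 and 374 CPM against 321, 330.1 and 323 CPM (-0.20, SE 0.0295, adjusted p = 0.0013). In each subunit every knockdown sample lay below every control sample, and the transcripts fell by 12.7%, 11.1% and 12.9%. With the GC content trend of each library removed, EIF2S1 was at -0.09 and no longer called (adjusted p = 0.114), and the other subunits kept their calls. EIF2S3B, an autosomal retrocopy of EIF2S3, was counted far less, at 8.98, 7.89 and 8.08 CPM against 8.95, 7.03 and 8.3 CPM, with overlapping groups (adjusted p = 0.862).

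The other factors that can deliver tRNA were called in opposite directions under TMM scaling. EIF2A (chr3:150546678-150586016), a monomeric protein used on some mRNAs, fell from 195, 189.7 and 197 CPM to 175, 174 and 174 CPM (-0.15, SE 0.0321, adjusted p = 0.00772). EIF2D (chr1:206571292-206612465), which can place tRNA in the ribosome without eIF2 and acts in ribosome recycling, rose from 49.8, 49.5 and 50.3 CPM to 60.7, 56.7 and 61.1 CPM (0.26, SE 0.0418, adjusted p = 0.00219). For neither gene did the groups overlap. EIF2A was at -0.05 and no longer called with the GC content trend removed (adjusted p = 0.356), where EIF2D was at 0.31 (adjusted p = 0.00124). EIF2A shares its locus with SERP1 on the opposite strand, whose count was 108% of that of EIF2A and whose log2 fold change was -0.03, and EIF2S2 overlaps RALY, whose count was 44.5% of that of EIF2S2 and whose log2 fold change was 0.03. The sources do not give how strand was handled, so reads in the shared stretches cannot be told apart.

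The exchange factor eIF2B showed no called decrease. Among its 5 subunits only EIF2B1 (chr12:123620406-123633766), the regulatory alpha subunit, passed the test, and 0 fell by edgeR's test at an adjusted or unadjusted p below 0.05 or by DESeq2. It rose from 156, 164 and 158 CPM to 177, 176 and 173 CPM (0.14, SE 0.0339, adjusted p = 0.0167), and every knockdown sample was above every control sample. The 4 other subunits had log2 fold changes of -0.06 (EIF2B2) to 0.12 (EIF2B5, the catalytic subunit), and the lowest adjusted p among them was 0.0952 (EIF2B5). EIF2B5 was called higher with library size alone (0.17, adjusted p = 0.0274) and with limma on log2(FPKM + 0.1) (adjusted p = 0.0436), as was EIF2B3 with limma (adjusted p = 0.038). EIF2B1 overlaps GTF2H3 on the opposite strand, which was itself called higher (log2 fold change 0.24, adjusted p = 0.00216) and had a count of 56.2% of that of EIF2B1, and DDX55, which had 45.2% of that count and a log2 fold change of -0.01. Its adjusted p rose to 0.0649 without control replicate 1, 0.0646 without control replicate 3 and 0.0662 without knockdown replicate 2.

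The 14 genes of eIF3 split, with 4 higher, 2 lower and 8 not called. EIF3A (chr10:119033670-119080823), the largest subunit and the base of the complex, fell from 793, 758 and 768 CPM to 657, 649 and 636 CPM (-0.26, SE 0.0299, adjusted p = 0.000415), a gap wider than the range within either group. EIF3M (chr11:32583798-32606264) fell from 219.6, 226 and 224 CPM to 205, 196 and 199 CPM (-0.16, SE 0.0329, adjusted p = 0.00744), but was at -0.04 and not called with the GC content trend removed (adjusted p = 0.44). EIF3I (chr1:32221928-32231604), which sits beside EIF3B and EIF3G in a mobile module, rose from 155, 162 and 166 CPM to 184, 194 and 202 CPM (0.26, SE 0.0436, adjusted p = 0.00228). Under TMM scaling its rise of 20.1% was the highest estimate among the 49 genes, with EIF2D close to it at 19.4%. With the GC content trend removed EIF2D was above EIF3I (0.31 against 0.26). The peripheral subunit EIF3K (chr19:38619082-38636955) rose from 86, 83.7 and 82.8 CPM to 93.6, 93.4 and 92.3 CPM (0.15, SE 0.0337, adjusted p = 0.0126), which became 0.0509 without control replicate 3 and 0.0541 without knockdown replicate 2.

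EIF3C and EIF3CL, near-identical copies on chromosome 16, rose together. EIF3C (chr16:28688558-28735727) went from 329, 337 and 332 CPM to 399.5, 378 and 392 CPM (0.23, SE 0.0324, adjusted p = 0.0011), and EIF3CL (chr16:28379579-28403841) from 303, 303 and 300.4 CPM to 332, 343 and 346 CPM (0.17, SE 0.0307, adjusted p = 0.00347). EIF3CL held 47% of the counts of the pair, and which copy a read came from is uncertain, so these calls are not separate measurements. With the counts of the copies summed, EIF3C was still called. The 8 subunits that were not called had log2 fold changes of -0.12 (EIF3D and EIF3E, adjusted p = 0.0621 and 0.0603) to 0.08 (EIF3G), and DESeq2 called EIF3D and EIF3E lower (adjusted p = 0.0396 and 0.0177). With the GC content trend removed EIF3E was at -0.0017 (adjusted p = 0.986). EIF3B, a core subunit like EIF3A and EIF3C, had 444, 447 and 450.3 CPM against 451, 454 and 444 CPM (log2 fold change 0.01).

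**Figure D3:**
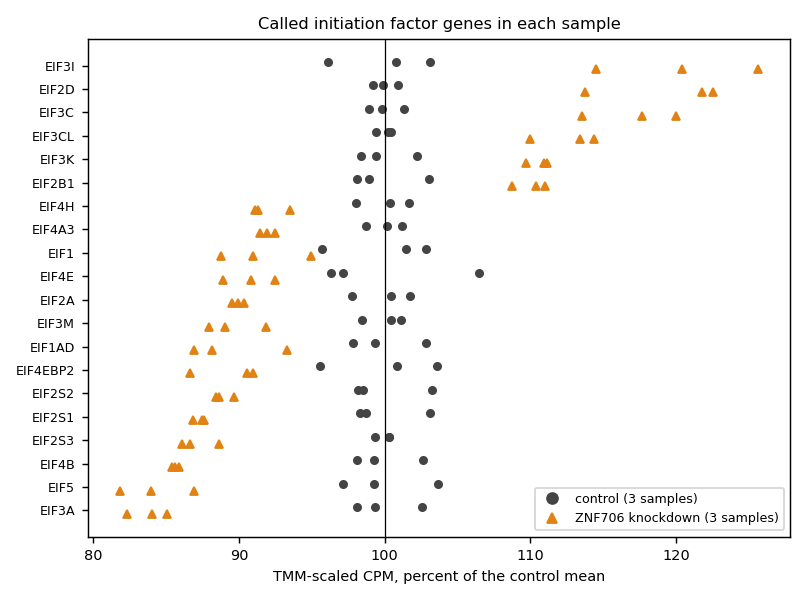
TMM-scaled CPM of the 20 called initiation factor genes in each of the 6 samples, as a percentage of the gene's control mean (circles, control; triangles, ZNF706 knockdown). No gene has overlapping groups, and the gap is narrowest for EIF1 and EIF4E.

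Of the 11 genes of the eIF4 group, 4 fell, and 0 rose by edgeR's test at an adjusted or unadjusted p below 0.05 or by DESeq2. EIF4B (chr12:53006282-53042215), which stimulates the helicase eIF4A, fell from 1103, 1090.0 and 1140.0 CPM to 954, 949 and 951 CPM (-0.22, SE 0.0274, adjusted p = 0.000525), that is, it fell by 14.4%, and the knockdown samples lay close together. Its relative EIF4H (chr7:74174245-74197101) fell from 599.5, 586 and 607 CPM to 546, 544 and 559 CPM (-0.12, SE 0.0293, adjusted p = 0.0155). For both cofactors every knockdown sample was below every control sample. The cap-binding gene EIF4E (chr4:98871684-98930637) had 152, 153 and 168 CPM against 143, 139.9 and 146 CPM (-0.14, SE 0.0442, adjusted p = 0.0465), with control replicate 3 well above the rest, and 13.9% of the counts of its family lay on EIF4E pseudogenes. EIF4A3 (chr17:80134369-80147139), the helicase of the exon junction complex, had 168, 171 and 172 CPM against 156, 156 and 158 CPM (-0.12, SE 0.0313, adjusted p = 0.0202). Of these 4 calls that of EIF4B held in all 17 alternative settings, whereas EIF4H lost it in 4 of 17, EIF4A3 in 8 of 16 and EIF4E in 11 of 17. EIF4E was at -0.03 with the GC content trend removed (adjusted p = 0.725), and EIF4A3 was at -0.10 with the replicate block added to that setting (adjusted p = 0.055).

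The other genes of this group were not called. EIF4A1 had 1010.0, 946 and 1019 CPM in the control samples and 1057, 982 and 1074 CPM in the knockdown samples, and the groups overlapped (log2 fold change 0.07, adjusted p = 0.308). The scaffold EIF4G1 was at 973, 965 and 980.2 CPM against 994, 992 and 955 CPM (0.01, adjusted p = 0.825). EIF4E2, which binds the cap without joining eIF4F, was at 76.2, 76.5 and 82 CPM against 73.3, 78.2 and 79 CPM (adjusted p = 0.738). For EIF4E3 the counts were 55, 143 and 127 against 66, 82 and 86, and the log2 fold change of -0.62 had an SE of 0.341 (adjusted p = 0.239). Control replicate 1 was the lowest of the 6 samples, and without it the adjusted p of EIF4E3 was 0.0285 at a log2 fold change of -0.94. EIF4A2 was at 296, 304 and 302.5 CPM against 303, 291 and 305.5 CPM, with overlapping groups (-0.01), and EIF4G3 and EIF4G2 had log2 fold changes of 0.04 and -0.05. The sign changed for 11 of the 49 initiation factor genes with the GC content trend removed, EIF4A2, EIF4G1 and EIF4G2 among them, and 0 of the 11 had been called.

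Among the repressors of eIF4E, EIF4EBP2 (chr10:70404145-70428618) fell from 123, 114 and 119.8 CPM to 108, 108 and 103 CPM (-0.16, SE 0.041, adjusted p = 0.0188), without overlap. EIF4EBP1, the more abundant paralog, was at 88.6, 93.6 and 91.8 CPM against 81.2, 90.3 and 92.2 CPM, with overlapping groups (-0.06, adjusted p = 0.491). With the GC content trend removed EIF4EBP1 was at -0.15 (adjusted p = 0.0641) and EIF4EBP2 at -0.10 (adjusted p = 0.109), and with the replicate number as a further term EIF4EBP1 was called (-0.16, adjusted p = 0.0385) and EIF4EBP2 was not (adjusted p = 0.103). EIF4ENIF1 was at 20.3, 20.6 and 20 CPM against 19.9, 19.3 and 19 CPM (-0.06, adjusted p = 0.56).

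The promoters of the eIF4 genes were read for the E-box CACGTG, a site of basic helix-loop-helix factors, and it is shown because all 4 called genes of this group carried it, a choice made after the matches were seen. Promoters of 42 of the 50 genes were read, taken from the RefSeq set for GRCh38.p14. They gave 58 windows of 250 bases before to 50 bases after a transcript start. The other genes, the called EIF2S2, EIF3A and EIF3CL among them, were left unread. A gene left unread may still have a promoter in that set. Of the 42 genes read, 11 (26.2%) held CACGTG, which reads the same on both strands. This compares with 8.72% of all genes and 7.2% of all 34796 promoters. Among the genes read, CACGTG was found in 4 of the 12 lower genes (EIF4A3, EIF4B, EIF4E and EIF4H) and 1 of the 5 higher genes (EIF3K). It was also in 5 of the 24 genes read that were not called and in EIF4EBP3, which was not tested. The stress response pattern TGATGNAAT, searched on both strands, was in 0 of the 42 genes and in 1.0% of all promoters, so the patterns did not overlap here. The 250 bases before the start are shown for a pair of lower genes and the higher gene, on the strand of the gene, with each E-box in capitals. EIF4B (chr12:53006206-53006455, plus strand) has it at position -22 from the start, EIF4E (chr4:98929134-98929383, minus strand) at -225 and -72, and EIF3K (chr19:38618938-38619187, plus strand) at -103.
EIF4B: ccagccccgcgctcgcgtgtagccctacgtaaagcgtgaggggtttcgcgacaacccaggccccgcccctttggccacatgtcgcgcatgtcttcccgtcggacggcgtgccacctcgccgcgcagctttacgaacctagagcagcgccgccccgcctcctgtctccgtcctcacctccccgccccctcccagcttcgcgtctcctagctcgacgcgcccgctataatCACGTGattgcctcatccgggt
EIF4E: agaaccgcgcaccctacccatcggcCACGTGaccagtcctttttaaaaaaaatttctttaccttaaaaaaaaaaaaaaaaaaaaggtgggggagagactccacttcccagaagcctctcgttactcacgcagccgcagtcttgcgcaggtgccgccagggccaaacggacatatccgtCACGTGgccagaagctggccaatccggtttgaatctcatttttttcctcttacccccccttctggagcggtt
EIF3K: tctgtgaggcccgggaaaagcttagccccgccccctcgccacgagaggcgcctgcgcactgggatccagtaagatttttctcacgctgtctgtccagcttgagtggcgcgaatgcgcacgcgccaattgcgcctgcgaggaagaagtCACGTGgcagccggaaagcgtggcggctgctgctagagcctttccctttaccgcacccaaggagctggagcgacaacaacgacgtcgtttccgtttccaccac
EIF4G1 also held the motif, at -144 and -67, and did not pass the test, and EIF4A3 and EIF4H held it at -121 and -199. The motif thus occurred in genes that fell, in a gene that rose and in genes that were not called. A match is a description of the letters and not a bound site.

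Of the 7 start codon and subunit joining genes, 3 fell and 0 rose by edgeR's test or DESeq2, while 1 of the rises (EIF6) had an unadjusted p below 0.05 and was called higher with library size alone (adjusted p = 0.0177) and with limma on log2(FPKM + 0.1) (adjusted p = 0.0215). EIF5 (chr14:103333544-103342640), the GTPase-activating protein of eIF2, fell from 387, 396 and 413 CPM to 346, 335 and 326 CPM (-0.25, SE 0.0368, adjusted p = 0.00135), a decrease that left the groups well apart. EIF1 (chr17:41688885-41692668), which guards start codon choice, had 507, 538 and 545 CPM against 470.1, 482 and 503 CPM (-0.13, SE 0.0383, adjusted p = 0.0388), and the highest knockdown sample lay just under the lowest control sample. EIF1AD (chr11:65996545-66002176), a nuclear protein with an eIF1A-like domain, fell from 48.5, 50.2 and 47.8 CPM to 43, 45.6 and 42.4 CPM (-0.16, SE 0.0462, adjusted p = 0.0318). EIF5 held its call in all 17 alternative settings, EIF1 lost it in 9 of 17 and EIF1AD in 9 of 16. EIF1B was at 41, 41.5 and 42.7 CPM against 38.7, 38.9 and 39.5 CPM and did not pass (adjusted p = 0.153). EIF1AX, EIF5B and EIF6, which keeps the large subunit from joining too early, had log2 fold changes of -0.07, -0.02 and 0.11.

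Of the 3 eIF5A genes 0 passed, by edgeR's adjusted or unadjusted p or by DESeq2. EIF5A was at 677, 704 and 746 CPM against 726, 725 and 732 CPM, so the knockdown values lay inside the control range (log2 fold change 0.04, SE 0.0368, adjusted p = 0.523). EIF5A2 was at 3.49, 2.85 and 3 CPM against 2.65, 2.74 and 2.5 CPM (-0.24, SE 0.16, adjusted p = 0.332). The retrocopy EIF5AL1 was at 0.13 on the log2 scale (adjusted p = 0.251), and its reads may come in part from EIF5A.

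Several calls rested on all 6 samples being present. In the fits that each omitted 1 sample, 12 of the 20 called genes were called in all 6 fits. EIF4H lost its call without knockdown replicate 2 (adjusted p = 0.0841). EIF4A3 lost it without control replicates 2 and 3 and knockdown replicates 1 and 2 (0.0598, 0.0644, 0.0504 and 0.0816), and EIF4EBP2 without control replicates 1 and 3 and knockdown replicates 2 and 3 (0.0582, 0.0576, 0.0593 and 0.0607). EIF1 was called only with all 6 samples or without control replicate 1 or knockdown replicate 3, and reached an adjusted p of 0.127, 0.126, 0.122 and 0.137 without control replicates 2 and 3 and knockdown replicates 1 and 2. EIF1AD kept its call only without knockdown replicate 2 (0.0613, 0.111, 0.0513, 0.0887 and 0.102 without the others, in the order of the groups and numbers). EIF4E kept it only without control replicate 1 (0.0667, 0.136, 0.0992, 0.168 and 0.0666 without the others). No initiation factor gene called in the full set changed direction in these fits. Scaling by library size alone took the call from EIF1, EIF1AD, EIF4A3, EIF4E, EIF4EBP2 and EIF4H (adjusted p = 0.0994 to 0.175), and so did limma on FPKM values.

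GC content moved with these changes. The longest transcript had a median GC content of 43.5% among the genes that fell, 49.5% among those that rose, 46.0% among those not called and 48.7% over all tested genes. Spearman's rho between GC content and log2 fold change was 0.49 across the 49 initiation factor genes and 0.19 across all tested genes, as a description, since genes of the same libraries share their depth and base composition. With each library's trend on GC content removed, 14 of the 20 genes were still called in the same direction and 6 were not, namely EIF1, EIF2A, EIF2S1, EIF3M, EIF4E and EIF4EBP2. These 14 are 70.0% of the called initiation factor genes, beside 75.1% kept of the 4192 genes called over the whole table, where calls then were 1947 higher and 1865 lower. The log2 fold change of EIF4E then was -0.03 and that of EIF3M -0.04, whereas EIF2S2 (-0.14), EIF2S3 (-0.12), EIF3A (-0.19), EIF4B (-0.21) and EIF5 (-0.16) kept their calls. EIF3D was called in addition (-0.14, adjusted p = 0.04). Across every alternative setting tried, 9 genes held their call throughout, of which 4 were higher (EIF2D, EIF3C, EIF3CL and EIF3I) and 5 lower (EIF2S2, EIF2S3, EIF3A, EIF4B and EIF5). The near-identical copies EIF3C and EIF3CL are counted as separate genes here, though not measured separately.

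**Figure D4:**
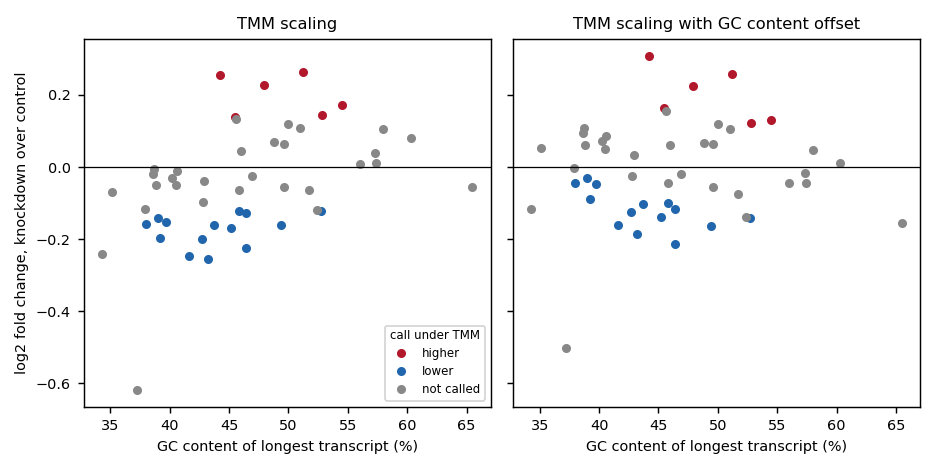
Log2 fold change of the 49 initiation factor genes against the GC content of the longest transcript, under TMM scaling (left) and with the GC content trend of each library removed (right), both coloured by the call under TMM scaling. On the left the genes that fell have a median GC content of 43.5% and those that rose of 49.5%, and on the right the low-GC genes among the former lie closer to 0.

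The other genes of translation were taken from a list of 53, of which 52 were in the table and tested, and 6 rose and 15 fell. Among the groups of this list and under TMM scaling, the largest share of calls was that of the 9 genes that set the phosphorylation of eIF2. Of these, 6 fell and 0 rose by edgeR's adjusted p, and EIF2AK2 and NCK1 lost their calls with the GC content trend removed. EIF2AK4 had an unadjusted p of 0.0154 by edgeR. It was called higher by DESeq2 (adjusted p = 0.0426), with library size alone (0.0172), with limma on log2(FPKM + 0.1) (0.0379) and with a mean count of at least 50 (0.0462). PPP1R15A, the stress-induced subunit that directs the phosphatase to eIF2, fell from 33.7, 32.2 and 31.9 CPM to 22.4, 18.9 and 19.4 CPM (log2 fold change -0.69, SE 0.0773, adjusted p = 0.000339), and its constitutive counterpart PPP1R15B fell from 265, 267 and 263 CPM to 208, 214 and 208 CPM (-0.34, SE 0.031, adjusted p = 0.000127). DNAJC3, a chaperone of the endoplasmic reticulum that inhibits eIF2 kinases, fell from 116, 126 and 121 CPM to 81.2, 83.1 and 75.9 CPM (-0.60, SE 0.0464, adjusted p = 6.1e-05).

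Of the 4 kinases, 2 fell and 2 were not called. EIF2AK3 (PERK), which senses stress in the endoplasmic reticulum, fell from 33.6, 33.5 and 38.3 CPM to 25.6, 25.8 and 26.1 CPM (-0.44, SE 0.0674, adjusted p = 0.00147). EIF2AK2 (PKR), activated by double-stranded RNA, was at 196, 191 and 194 CPM against 176, 181 and 161 CPM (-0.16, adjusted p = 0.0283), and lost its call when any of the 3 control samples or knockdown replicate 3 was left out (adjusted p = 0.0738, 0.0622, 0.0749 and 0.0585), with library size alone (0.13) and with the GC content trend removed (0.38). EIF2AK4 (GCN2), activated by uncharged tRNA, was at 71.9, 73.9 and 76.5 CPM against 85.7, 82.5 and 76.6 CPM and did not pass (0.14, adjusted p = 0.0619), and neither did EIF2AK1 (0.06, adjusted p = 0.208, and 0.0261 with library size alone) or IMPACT (0.06, adjusted p = 0.556). The adaptor gene NCK1 fell from 63, 62.5 and 62.2 CPM to 48.9, 52.1 and 53.1 CPM (-0.28, adjusted p = 0.00123, and 0.0503 with the GC content trend removed). Phosphorylation of eIF2 was not measured.

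Among 18 partners and regulators of initiation, 4 fell and 2 rose. Further higher calls were DHX29 and PDCD4 with the GC content trend removed (0.17 and 0.13, adjusted p = 0.0261 and 0.0404) and MKNK1 with library size alone (0.18, adjusted p = 0.0302) and with limma on log2(FPKM + 0.1) (adjusted p = 0.0447). DDX3X, an RNA helicase, fell from 1106, 1075 and 1111 CPM to 963, 940.2 and 929.5 CPM (-0.22, adjusted p = 0.000676), LARP1, which binds the mRNAs of ribosomal proteins, from 443, 431 and 443 CPM to 388, 386 and 367 CPM (-0.21, adjusted p = 0.00205), and PABPC1, the poly(A)-binding protein, from 623, 604 and 632 CPM to 557, 547 and 540.2 CPM (-0.18, adjusted p = 0.00281). The eIF5 mimics BZW1 and BZW2 were called in opposite directions (-0.09 and 0.16, adjusted p = 0.0472 and 0.0221). BZW1 lost its call whichever of the 6 samples was left out (adjusted p from 0.0535 to 0.147) and with library size alone (0.393), and its log2 fold change was 0.018 with the GC content trend removed, and BZW2 without control replicates 1 and 2 or knockdown replicates 1 and 2 (0.0704, 0.0818, 0.0655 and 0.0933). MCTS1, the partner of DENR in reinitiation, rose (0.16, adjusted p = 0.0142, and 0.051 and 0.0685 without control replicate 1 and knockdown replicate 2), whereas DENR (-0.10, adjusted p = 0.0529) was not called, though DESeq2 (adjusted p = 0.033) and edgeR with DESeq2's size factors (0.0496) called it lower. With the GC content trend removed DENR was at 0.0070 (adjusted p = 0.924).

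Outside initiation, 5 of the 10 tested genes listed under termination and recycling fell and 0 rose by edgeR's adjusted or unadjusted p or by DESeq2. Of the 13 genes listed under elongation, 3 rose and 0 fell by edgeR's adjusted p or DESeq2, with 2 lower at an unadjusted p below 0.05 (EEF1E1 and GFM1). The 3 were TUFM, EEF2K and GFM2, and GFM2 was listed there although it acts in recycling. EEF2 was called lower with the GC content trend removed (-0.11, adjusted p = 0.00829) and EEF1E1 with the replicate block (adjusted p = 0.0276). The release factor ETF1 fell from 476, 478 and 491 CPM to 423, 421 and 423 CPM (-0.19, adjusted p = 0.00146), and ABCE1, which splits ribosomes after termination, from 154, 144 and 156 CPM to 134, 123 and 125 CPM (-0.25, adjusted p = 0.00409). The rescue factors PELO (-0.24) and HBS1L (-0.20) and the release factor GSPT1 (-0.12) were also called. GSPT1 lost its call without control replicates 2 and 3 and knockdown replicates 1 and 2 (adjusted p = 0.0787, 0.0875, 0.0589 and 0.132), and PELO without control replicates 2 and 3 and knockdown replicates 2 and 3 (0.0849, 0.097, 0.107 and 0.0865). With library size alone neither was called (0.164 and 0.0679), nor with limma on log2(FPKM + 0.1) (0.103 and 0.0574), and PELO also lost its call without a filter (0.0729) and with the GC content trend removed together with the replicate block (0.0742). With the GC content trend removed, ABCE1, HBS1L and GSPT1 were not called (0.0566, 0.15 and 0.672). TUFM, the mitochondrial elongation factor, rose from 309, 302 and 313 CPM to 356, 362 and 379 CPM (0.25, adjusted p = 0.000904), GFM2, a mitochondrial recycling factor, by 0.21 on the log2 scale, and EEF2K, the kinase that inhibits elongation factor eEF2, by 0.17 (adjusted p = 0.0131, and 0.0522, 0.055 and 0.0645 without control replicates 1 and 3 and knockdown replicate 2). The mitochondrial initiation factor MTIF2 rose (0.14, adjusted p = 0.0283), a call kept only without control replicate 3 (0.0953, 0.107, 0.0522, 0.11 and 0.0503 without the others).

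**Figure D5:**
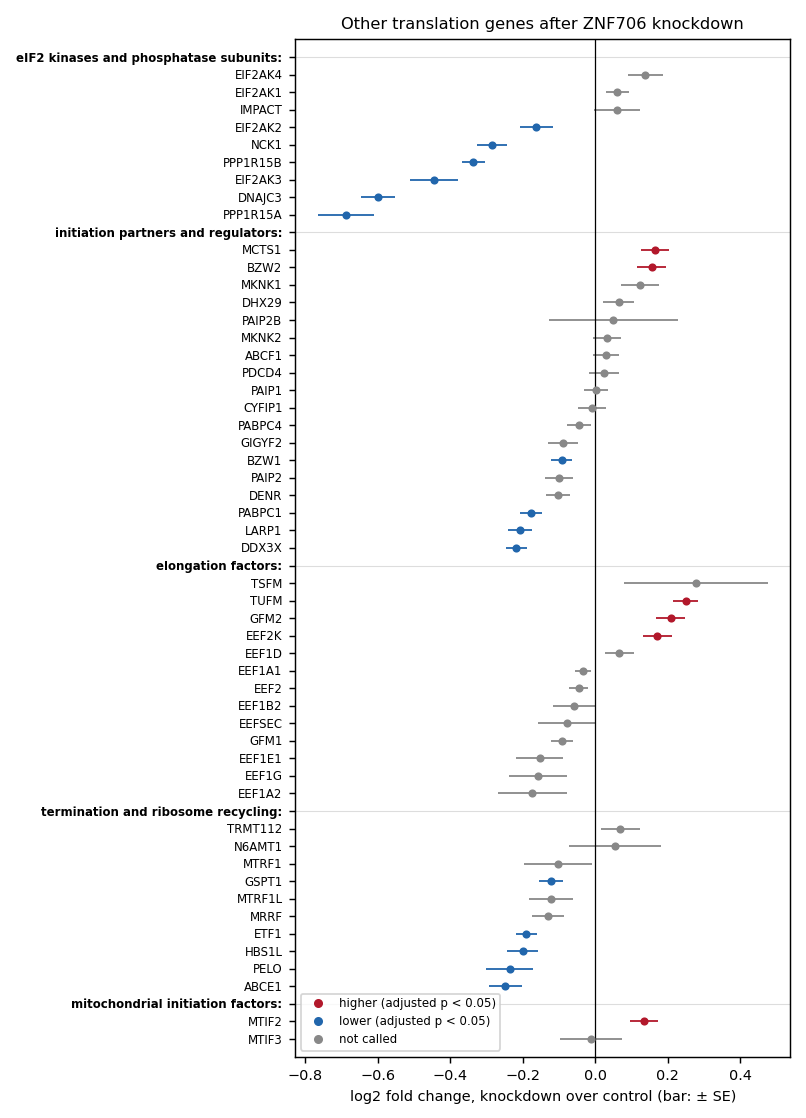
Log2 fold change (knockdown over control) with its standard error for the 52 other translation genes tested, grouped by function and coloured by call (edgeR's quasi-likelihood test, adjusted p below 0.05). PPP1R15A at -0.69, DNAJC3 at -0.60 and EIF2AK3 at -0.44 lie farthest below 0, and the 3 called genes listed under elongation lie above it.

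A few markers of other cell types also moved. Of 6 fibroblast markers, COL1A1 (from 72.8, 73.3 and 75.2 to 85.5, 85.3 and 84 CPM) and PDGFRB rose, and COL1A2 was listed at 117, 8 and 0 counts against 0, 0 and 119. The summed FPKM of the fibroblast markers was 9.41, 7.9 and 8.33 in the control samples, against 9.85, 10.1 and 9.61 in the knockdown samples, most of it COL1A1. Of 5 leukocyte markers in the table only CSF1R rose (from 23.4, 24.2 and 20.1 to 32.3, 29.3 and 33.5 CPM), with a summed FPKM of 4.27, 4.68 and 4.23 against 5.99, 5.5 and 6.38, and the defining gene PTPRC had 8, 8 and 0 counts against 0, 0 and 0. CSF1R (chr5:150053291-150113372) and PDGFRB (chr5:150113839-150155860) are neighbours on the same strand, and whether they moved as a unit was not tested. Of 3 endothelial markers CDH5 fell, with a summed FPKM of 1.79, 1.91 and 2.06 against 1.43, 1.61 and 1.69. Among the 11 hepatic and epithelial markers APOB and SERPINA1 fell, with a summed FPKM of 456, 466 and 488 against 454, 469 and 471, most of it KRT18 and KRT8. SERPINA1 was called in all 6 fits that omitted a sample, and APOB in only 2 of them (adjusted p up to 0.0868). KRT18 was not called (-0.10, adjusted p = 0.0758). It was called lower by DESeq2 (adjusted p = 0.0233) and with the GC content trend removed (-0.15, adjusted p = 0.0111). The part of these genes in the changes of the initiation factor genes was not tested, nor was that of the cell number behind each library, and in such samples fewer cells of a type and less RNA per cell cannot be told apart.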

How the data were processed

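LM3 total RNA (TRIzol) was sequenced on an Illumina NovaSeq instrument. Per the labels and the study's methods, the authors trimmed reads with cutadapt 1.9, checked them with FastQC and mapped them to GRCh38 with HISAT2. The authors deposited raw counts per gene, without normalization, and FPKM values, which account for length and depth. The counting program, its use of strand and the annotation release are not given in the sources used here. Gene positions matched GENCODE release 29 (99.88% overlapped).

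Counts were filtered (filterByExpr), TMM-scaled and tested with edgeR 4.0.16 (quasi-likelihood, group term only) in R 4.3.3. Adjusted p-values are Benjamini-Hochberg values over all 18390 tested genes, and the SE was derived from the fold change and its F statistic. Alternatives were DESeq2 1.42.0, its size factors, library size alone, other filters, a replicate block, a GC content offset (loess, span 0.3, longest GENCODE transcript), limma 3.58.1 on log2(FPKM + 0.1) or log2(FPKM + 1) (mean FPKM of 1 or more), and each sample left out. Summing near-identical copies was chosen after seeing the data. The fit was tested on simulated counts.

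Initiation factor genes and the other lists were chosen with earlier results of these data known. By rule, all called genes are named, with values per sample for the called initiation factor genes, their listed paralogs and the 3 most and least abundant tested ones, and for some of the other translation genes. Others named were chosen after their values were seen. The replicates were not repeats of 1 library, with a chi-square per gene of 12.8 to 22.2 within and 45.9 to 53.9 between groups. No sample stood apart from its group on the first principal component (29.6% of the variance). On the second (21%) control replicates 1 and 2 lay at 52.4 and -43.7 and the other 4 samples between -17.7 and 7.81.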

Additional observations from a re-analysis of the deposited data

How the results depend on the processing

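Against 14 initiation factor genes called lower, 9 were called with the GC content offset, with or without the replicate block, 8 with library size alone and 8 with limma on either FPKM scale. Higher calls were 6 in the full fit, 8 with library size alone, 9 with limma on either FPKM scale and 4 to 6 with a sample left out, where lower calls were 9 to 14. By the study's criteria the count of 0 became 1 with the GC content offset, with or without the replicate block (EIF2D), 2 with library size alone (EIF2D and EIF3I) and 1 with limma on either FPKM scale (EIF3I), and was 0 to 1 with a sample left out. The median log2 fold change of the 49 genes, -0.05, turned to 0.0049 with library size alone. With limma on either FPKM scale it was 0.0005 over 47 genes, since EIF4E3 and EIF5A2 were below the FPKM minimum. The median of all genes was 0.063 with library size alone and 0.027 with limma (0.023 for log2(FPKM + 1)) instead of 0.0095. The median of the initiation factor genes was thus below that of all genes in each. Among the other translation genes, 10 rather than 6 were called higher with library size alone, and 2 to 6 with a sample left out. Over all genes, 1518 instead of 2286 were called lower with library size alone, 1865 with the GC content offset and 1939 with the block added, 1253 instead of 1906 higher without a filter, and 1148 to 1485 higher and 1500 to 1939 lower with a sample left out, the lowest counts without knockdown replicate 2.

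With the GC content offset 11 of the 49 initiation factor genes, 0 of them called, and 8 of the 52 other translation genes, 1 of them called (BZW1, -0.09), changed sign, and with library size alone 8 and 5 did, 0 of them called. EIF2S3B (-0.04) became 0.034 with the GC content offset, 0.029 with the replicate block added, 0.015 with library size alone and 0.0052 and 0.0048 with limma, and ranged from -0.12 to 0.054 with a sample left out. EIF4E2 (-0.03) became 0.028 with library size alone and 0.023 and 0.021 with limma, and ranged from -0.048 to 0.0080 with a sample left out. EIF5A became -0.017 with the GC content offset and -0.017 with the block added, and BZW1 0.018 with either. The cause was not tested.

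Samples with the same number did not deviate together (r = 0.034, -0.036 and -0.016). With 3 samples per group this cannot show whether the numbers pair the samples. With the replicate block alone, 6 initiation factor genes were called higher and 15 lower, where the gain was EIF3E (adjusted p = 0.0202), and none of the 20 calls was lost. Nor was one lost with DESeq2, DESeq2's size factors or a mean count of at least 50, of which DESeq2 added EIF3D and EIF3E. Without a filter 11 were called lower, and EIF1, EIF1AD and EIF4E lost their calls (adjusted p = 0.0945, 0.0589 and 0.0972). EIF4E3 and EIF5A2, the tested genes with the lowest FPKM, had SEs of 0.341 and 0.16, where counting error alone would give 0.124 and 0.086.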
